A study of Homo sapiens with 8 samples.

Results

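Doxycycline was tested on its own in A375 cells, a human melanoma line, that carried an inducible non-targeting hairpin (shNTC). The comparison uses 4 of the 8 arrays of the series, chosen by their titles: 2 with Doxycycline followed by DMSO, and 2 with DMSO alone. It serves as the control for what Doxycycline and hairpin induction do without knockdown of HSF1. The shNTC cells held the hairpin in a pLKO-Tet-On puromycin vector and were selected as an infected population. They received Doxycycline at 100 ng/mL for 3 days or none, and then 0.1% DMSO for 3 h. The other 4 arrays are A375 cells with a hairpin against HSF1 (shHSF1), with or without Doxycycline, all treated with 100 nM of the HSP90 inhibitor NVP-HSP990 for 3 h. The growth protocol in the labels names Doxycycline without separating the groups, so the groups follow the titles. Doxycycline also switches the hairpin on, so the drug and the expression of a hairpin cannot be told apart here. Nothing in the labels ties the 2 arrays of a group to separate cultures, so the p-values reflect array-to-array spread that may be purely technical. The titles mark an array of each group as a repeat. First run and repeat run below are only names for the first and the repeat arrays. The labels name no runs and do not pair arrays across groups.

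Doxycycline is a tetracycline antibiotic that binds bacterial ribosomes, and it can also inhibit the related ribosomes of mitochondria. Mitochondrial ribosomes translate the few respiratory chain subunits encoded by mitochondrial DNA, while all other subunits are made from nuclear genes. In many human cell lines a block of mitochondrial translation is known to raise transcripts of the ATF4 pathway, which serve amino acid synthesis and stress signalling, and Doxycycline is also known to inhibit matrix metalloproteases as enzymes.

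The values are MAS5 signals, a linear measure of brightness scaled per array, and changes are differences of log2(signal + 16), which understates the change of dim genes. Of 12672 genes tested by limma in a model of all 8 arrays, 0 (0%) were called at an adjusted p under 0.05. At an unadjusted p under 0.05, 88 genes (0.694%) were higher with Doxycycline and 218 (1.72%) were lower. The 306 genes together (2.41%) were fewer than the 634 that an even spread of p-values over all tested genes would give, so the unadjusted p-values below describe single genes and call none. The count was 533 with no filter, 644 with probe sets tested singly and 588 with the methods' t-test. With a replicate block on the first and repeat arrays it came close to the 634, so the shortfall depends on the model. The split between higher and lower depends on the arrays and on the scaling. Without the repeat Doxycycline array 268 were higher and 244 lower, without the first Doxycycline array 569 and 474, without the first DMSO array 70 and 101, and without the repeat DMSO array 41 and 107. Median centring gave 159 higher and 152 lower, and quantile normalization 132 and 187. In 1492 genes (11.8%) both Doxycycline arrays lay above both DMSO arrays, and in 2111 (16.7%) both lay below.

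The size of the changes was bounded more tightly than the calls alone show. The log2 changes ran from -1.16 to 1.32 with a median of -0.0064, and the 1st and 99th percentiles were -0.51 and 0.44. For 12218 genes (96.4%) the whole 95% interval lay within a 2-fold change in either direction. Here and below, fold changes of estimates and intervals are of the signal with the value added before the log. For dim genes they do not bound the change of the signal itself. The median half-width of the 95% interval, unadjusted for the number of genes, was 0.44 on the log2 scale. Smaller changes were thus not detectable gene by gene with 2 arrays a group. Larger ones were not called either: MAFF, with a log2 change of -0.99, had an adjusted p of 0.318 by limma. Only 5 genes had an estimate beyond 2-fold on this scale: TVP23B, HDAC4 and CCNA1 were lower, and MMP3 and MAP2 were higher. THSD7A, a dim gene, was not among them at a log2 change of 0.77. Its signals were 7.4 and 7.2 with DMSO and 17.5 and 30.9 with Doxycycline, a change beyond 2-fold in the signal itself. THSD7A was at or above the array median on the Doxycycline arrays alone, so it was tested only because it was high there. MAP2, a microtubule-associated protein named after its values were seen, had signals of 217.6 and 88.5 with DMSO and of 435 and 215.5 with Doxycycline, so that its groups overlapped.

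The control probe sets of one array stood apart. Whether RNA quality, labelling or hybridization underlies this was not tested. For ACTB, the 3-prime over 5-prime signal ratio, which climbs when RNA is degraded or labelled short, was 6.66 and 13.7 in the DMSO arrays and 4.73 and 46.8 in the Doxycycline arrays, the last being the repeat array. The same ratio for GAPDH was 1.47 and 1.98 with DMSO and 1.34 and 3.13 with Doxycycline. The repeat Doxycycline array was the highest of the shNTC arrays for both genes, and the first Doxycycline array the lowest. Its ratio for dap, a bacterial transcript used as a spike-in, was 12.6, against 6.23, 7.25 and 3.69 in the other shNTC arrays and 13.8 in the first array of shHSF1 cells with NVP-HSP990. Another spike-in, thr, did not set the array apart, at 13.2 against 12.8 in the repeat DMSO array. The cre hybridization control, which is added after labelling, read 12734 on that array and 6340 to 8096 on the other shNTC arrays. The brightest 1% of probe sets took 23.9% of all signal there and 17.3% to 19.3% on the other shNTC arrays.

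Bright genes moved with that array. With the tested genes split into 10 equal groups by brightness, the median change in the brightest group between the repeat arrays was 0.22 on the log2 scale, and between the first arrays it was -0.013. In group 6, near the middle, the medians were -0.085 and -0.0022. The standard deviation between the arrays of a group was 0.267 with Doxycycline, where 181 genes differed by more than 2-fold, and 0.174 with DMSO, where 16 did. The part of this array difference in the changes below was examined only by leaving out the array and by adding the ACTB ratio as a covariate. With that covariate the smallest adjusted p in shNTC cells was 0.401 by limma. Beyond this it was not tested.

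**Figure D1:**
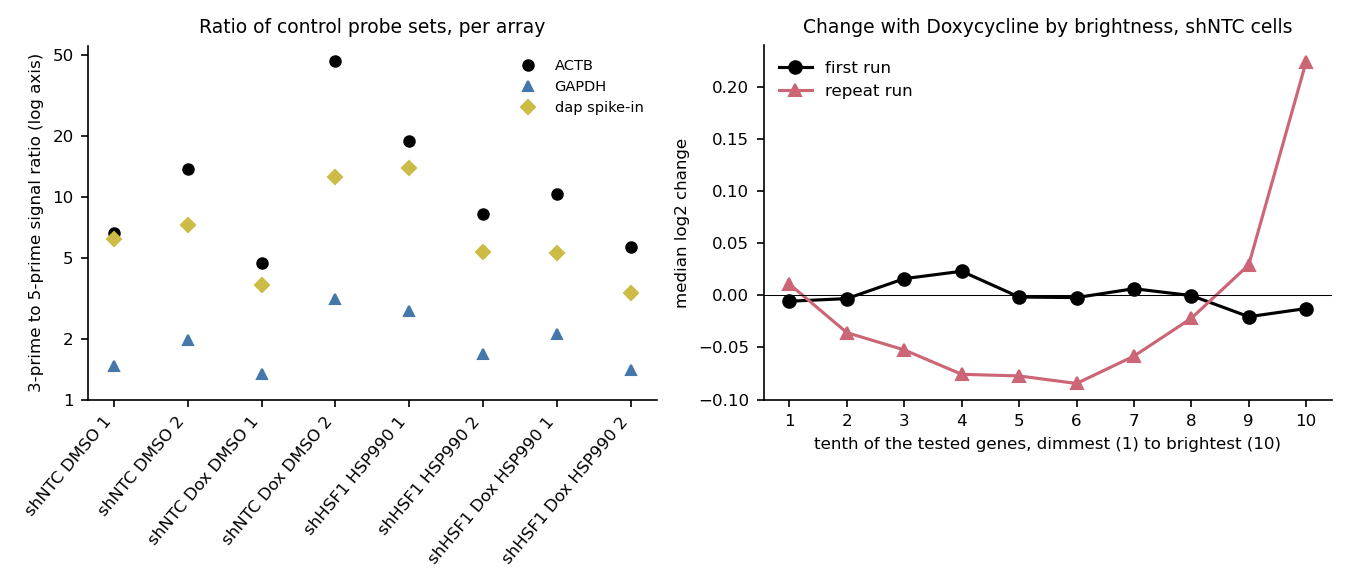
Left, ratio of 3-prime to 5-prime control probe sets on each of the 8 arrays (log axis), with the second shNTC Doxycycline array at 46.8 for ACTB. Right, median log2 change with Doxycycline in shNTC cells in 10 equal groups of the tested genes by brightness, where the repeat run reaches 0.22 in the brightest group and the first run stays at -0.013.

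The change between the first arrays and that between the repeat arrays had little in common. Across the 12672 genes, the change between the first arrays and that between the repeat arrays correlated at r = 0.12, and 52.9% of genes had the same sign in both. For Doxycycline in shHSF1 cells with NVP-HSP990, the corresponding correlation was 0.74. Genes are not independent replicates, and these values are descriptions without a test. The 20 genes named by size below were chosen for not overlapping between groups, so their place in the same corner of both runs is fixed by that choice.

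**Figure D2:**
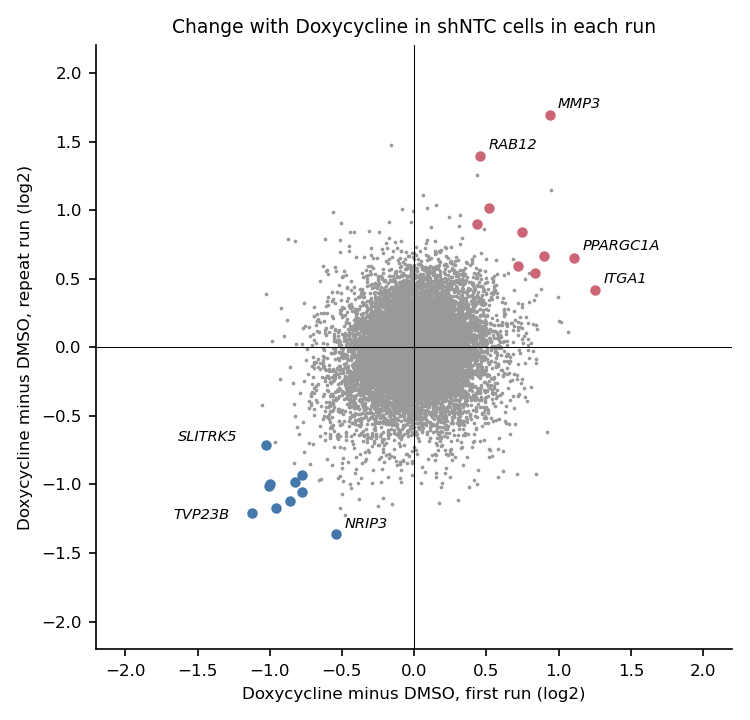
Log2 change with Doxycycline in shNTC cells between the first arrays (horizontal) and between the repeat arrays (vertical) for 12672 genes in grey, with r = 0.12. Blue and red points are the 10 lowest and 10 highest genes chosen by rule, among them MMP3 at 0.94 and 1.70.

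Markers of the melanocyte lineage were present in part. MITF and SOX10, transcription factors of the melanocyte lineage, had signals of 1185 to 1775 and 678 to 1069 over the shNTC arrays, while the pigment genes PMEL, MLANA, TYR and TYRP1 stayed at 6.2 or below. Of 19 genes of the melanocyte list, 11 were at or above the array median on all 4 shNTC arrays, with summed signals of 6177 and 6784 with DMSO and of 5720 and 7032 with Doxycycline. AXL, the brightest member, made up 2722.5 and 2948.3 of these with DMSO and 2611.1 and 3257.7 with Doxycycline. The summed fibroblast markers were 961 and 864 against 977 and 796, with 6 of 11 at or above the median throughout, LUM the brightest. Hepatocyte markers summed to 87.6 to 123, and ALB stayed at 4.3 or below. Colon epithelial markers summed to 1998 to 2421, nearly all from KRT18, and CDX2 stayed at 0.9 or below. In bulk RNA, fewer cells of a type and less RNA per cell cannot be told apart. HSF1 itself, which the non-targeting hairpin should leave alone, had a log2 change of -0.015 with a 95% interval of -0.65 to 0.62. Its signals ran from 36.6 to 47.9 over the 4 arrays, and the groups overlapped.

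Transcripts of mitochondrial DNA, the templates of the ribosomes that Doxycycline can inhibit, were bright and were not called. ND6, a complex I subunit, had signals of 2647 and 3566 with DMSO and of 2998 and 5262 with Doxycycline. ND4, another complex I subunit, had 4093 and 4732 against 4113 and 6984. COX1, a catalytic subunit of complex IV, had 2432 and 2694 against 2314 and 3454. The repeat Doxycycline array was the highest for each of these genes, while the first Doxycycline array lay near or within the DMSO arrays. Over the 7 mitochondrial genes tested, the median log2 change was 0.21. It was -0.04 between the first arrays and 0.49 between the repeat arrays, where all 7 were above 0, against 2 of 7 in the first. The median was -0.15 without the repeat Doxycycline array, 0.61 without the first, 0.07 without the first DMSO array and 0.04 with quantile normalization. Apart from COX3, these genes lie in the brightness range in which the repeat array differed. Over 15 housekeeping genes the median was 0.11, with -0.0078 in the first run, 0.30 in the repeat run and -0.02 with quantile normalization.

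Nuclear genes for the mitochondrial ribosome and its factors gave 0 calls. Of 48 large subunit genes, 14 (29.2%) were lower without overlap and 1 was higher, beside 16.7% and 11.8% of all genes, with a median of -0.08. MRPL46, the large subunit gene with the smallest p, had signals of 704.7 and 675.6 with DMSO and of 540.2 and 573.4 with Doxycycline, a log2 change of -0.30 (95% interval -0.70 to 0.09). Of 30 small subunit genes, 7 (23.3%) were lower and 3 higher without overlap, with a median of -0.04 that was 0.01 with median centring. MRPS2 had 386.1 and 394 with DMSO and 278.9 and 308.1 with Doxycycline, a log2 change of -0.39 (unadjusted p = 0.0274 from limma). Of 33 translation factors and genes of mitochondrial DNA expression, 9 (27.3%) were lower and 0 higher without overlap, with a median of -0.08. Among them, TACO1, a translational activator of COX1, had 1202 and 1070 with DMSO and 979.1 and 808.6 with Doxycycline. TFAM, which packages and transcribes mitochondrial DNA, had a log2 change of -0.15 (95% interval -0.47 to 0.17). The intervals of all genes in these 3 lists lay within a 2-fold change in either direction.

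The nuclear subunits of the respiratory chain showed no call either. NDUFS3, a core subunit of complex I, had signals of 1282 and 1377 with DMSO and of 955.4 and 883.5 with Doxycycline, so that its groups did not overlap. Its log2 change was -0.52 (95% interval -0.88 to -0.17, unadjusted p = 0.00765 from limma), and no other of the 33 complex I genes passed that unadjusted threshold. The median of complex I was -0.03 and turned to 0.01 with median centring. That of 10 genes of complexes II and III was 0.05 and turned to -0.02 with quantile normalization. That of 26 genes of complexes IV and V was 0.06. For complexes IV and V the median was -0.05 in the first run and 0.19 in the repeat run, and it was -0.06 with quantile normalization. COX7A2, a complex IV subunit, had 1928 and 2139 with DMSO and 1874 and 3246 with Doxycycline, high only on the repeat array.

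Stress genes that follow a mitochondrial block were not called. ATF4, the transcription factor at the head of the amino acid and mitochondrial stress response, had signals of 2670 and 2766 with DMSO and of 2330 and 3096 with Doxycycline. Its log2 change was -0.017, with a 95% interval of -0.40 to 0.37. DDIT3, a stress-induced transcription factor also known as CHOP, had 117.3 and 118.2 against 98.7 and 110.8, slightly below without overlap, with a log2 change of -0.15 (95% interval -0.55 to 0.25). Of the 35 genes tested, 0 passed even the unadjusted threshold, 3 (8.57%) were higher and 6 (17.1%) lower without overlap, beside 11.8% and 16.7% of all genes, and the median was -0.05. For 34 of the 35, the interval lay within a 2-fold change, the exception being ATF5. The median was -0.15 between the first arrays and 0.03 between the repeat arrays. VLDLR, a lipoprotein receptor and the member with the smallest p, had 42.9 and 36.3 with DMSO and 62.6 and 53.5 with Doxycycline, a log2 change of 0.41 (unadjusted p = 0.0901).

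Mitochondrial chaperones and proteases were measured as a separate list of 18 genes, with a median of -0.05 and 6 (33.3%) lower without overlap against 0 higher, beside 16.7% and 11.8% of all genes. AFG3L2, a protease of the inner membrane, had signals of 920.9 and 856.2 with DMSO and of 625.5 and 740.9 with Doxycycline (log2 change -0.38, unadjusted p = 0.0357). HSPD1, the mitochondrial HSP60, had a log2 change of 0.26 (95% interval -0.33 to 0.85), and HSPA9, the mitochondrial HSP70, of 0.05 (95% interval -0.38 to 0.48). Of 24 glycolysis genes, 0 passed the unadjusted threshold, with a median of 0.00 that was -0.09 in the first run, 0.15 in the repeat run and -0.05 with quantile normalization. Hypoxia genes had a median of 0.11 over 19 genes, also with 0 at the unadjusted threshold.

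**Figure D3:**
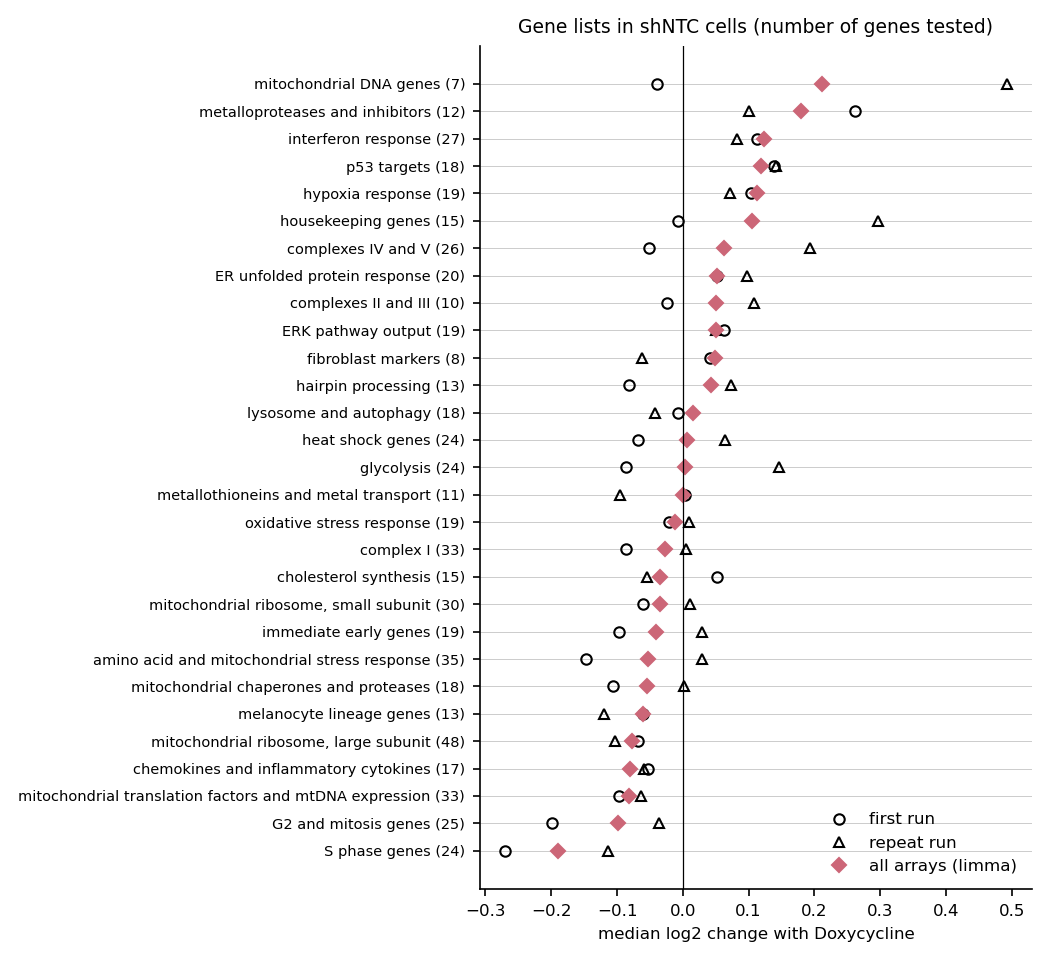
Median log2 change with Doxycycline in shNTC cells for each gene list with at least 7 tested genes, from all arrays by limma (red), between the first arrays (circles) and between the repeat arrays (triangles). Mitochondrial DNA genes lie at -0.04 and 0.49 in the 2 runs, and S phase genes at -0.27 and -0.11.

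The coactivator of mitochondrial biogenesis, PPARGC1A, was among the 10 genes highest with Doxycycline. Its signals were 54.1 and 45.6 with DMSO and 134.9 and 80.5 with Doxycycline. Both Doxycycline arrays lay above both DMSO arrays, the first farther than the repeat. The log2 change was 0.88 (95% interval 0.29 to 1.46, unadjusted p = 0.00713, adjusted p = 1.00 by limma), and it was 0.48 to 1.20 over the alternatives. ALDH6A1, a mitochondrial enzyme of valine breakdown, had 221 and 216.7 with DMSO and 374.8 and 334.4 with Doxycycline, with a log2 change of 0.66 (95% interval 0.31 to 1.00). Its other probe sets, dim at 24.1 or below on the shNTC arrays, ranged from -0.11 to 0.56, and the only one of them above the median on all 8 arrays gave 0.21.

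MMP3, the metalloprotease stromelysin, had the highest change of all tested genes. Its signals were 118.2 and 52.5 with DMSO and 241 and 206 with Doxycycline. The groups did not overlap, although the DMSO arrays themselves differed by more than 2-fold. The log2 change was 1.32 (95% interval 0.59 to 2.04, unadjusted p = 0.0022, adjusted p = 1.00 by limma), or 2.49-fold higher, and it was 0.83 to 1.80 over the alternatives. MMP1, the interstitial collagenase, had 548.2 and 339.9 with DMSO and 771 and 630.6 with Doxycycline. MMP2, a gelatinase, had 927.4 and 846.8 against 1196 and 1123. Both were higher in both Doxycycline arrays, with 95% intervals of -0.31 to 1.66 for MMP1 and -0.38 to 1.14 for MMP2 that include 0. Over the 12 metalloproteases and inhibitors tested, 5 were higher without overlap (41.7%) and 1 was lower, beside 11.8% and 16.7% of all genes, and the median was 0.18. In shHSF1 cells with NVP-HSP990, MMP3 rose with Doxycycline by 2.04 on the log2 scale (adjusted p = 0.00917 by limma), while MMP1 had a log2 change of -1.08 and MMP2 of -0.46 there, neither called.

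Several of the other genes among the 10 highest varied between the Doxycycline arrays. ITGA1, a collagen-binding integrin, had signals of 68.7 and 69.8 with DMSO and of 185.8 and 98.8 with Doxycycline. PRDM1, a transcriptional repressor, had 43.7 and 21.7 against 84 and 51.6. RAB12, a small GTPase of membrane traffic, had 519.8 and 446.6 against 719 and 1202. In each of these the Doxycycline arrays were the higher pair, and they differed from one another by more than the DMSO arrays did for ITGA1 and RAB12. For RAB12 another probe set above the median on all 8 arrays had a log2 change of -0.19, against 0.93 for the one used. BBS10, THSD7A, PAPPA and PTPRD had log2 changes of 0.78, 0.77, 0.69 and 0.67, respectively. THSD7A was at or above the array median on the 2 Doxycycline arrays alone, so it passed the filter on dim genes only through the group in which it was high and had to differ.

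**Figure D4:**
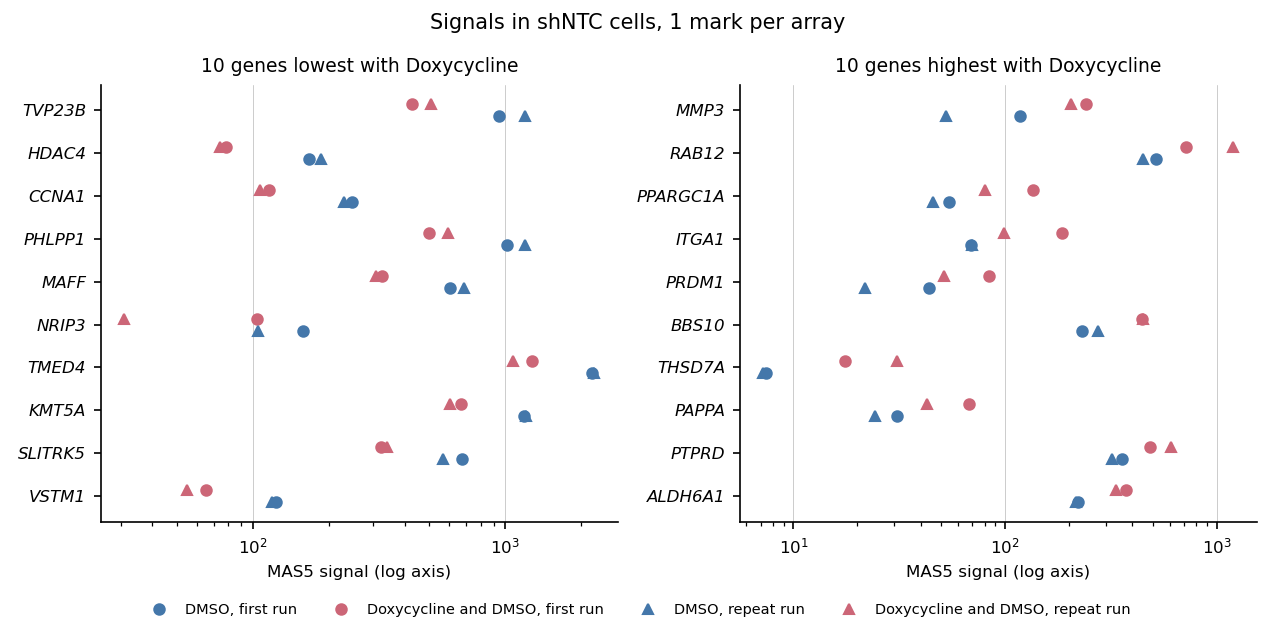
MAS5 signals (log axis) of the 10 genes lowest and the 10 genes highest with Doxycycline in shNTC cells, 1 mark per array, DMSO in blue and Doxycycline in red. By the rule that chose them the colours do not overlap, and MAFF runs from 604.6 and 689.4 with DMSO to 326.6 and 307.7 with Doxycycline.

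Among the 10 lowest genes were 6 of the 7 with the smallest adjusted p. MAFF, a small MAF transcription factor, had the smallest p of all genes, with signals of 604.6 and 689.4 with DMSO and of 326.6 and 307.7 with Doxycycline. The log2 change was -0.99 (95% interval -1.31 to -0.67, unadjusted p = 3.4e-05, adjusted p = 0.318 by limma), and a second MAFF probe set gave -0.91. HDAC4, a class II histone deacetylase, had 167.2 and 187.1 with DMSO and 78.3 and 74.2 with Doxycycline, with log2 changes of -1.06 and -0.98 from separate probe sets. CCNA1, cyclin A1, had 248.2 and 230.7 against 115.9 and 106.5, a log2 change of -1.01. PHLPP1, a phosphatase that acts on AKT, had 1014 and 1194 against 499.1 and 591.6, a log2 change of -0.997. In each of these 4 genes the arrays of a group lay close together, and the Doxycycline arrays were well below the DMSO arrays.

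KMT5A, a histone methyltransferase, had signals of 1192 and 1208 with DMSO and of 666.1 and 602.3 with Doxycycline, a log2 change of -0.90. Its other probe sets above the median disagreed, at -0.77, -0.15 and -0.12. TMED4, a protein of the early secretory pathway, had 2203 and 2255 against 1278 and 1077, a log2 change of -0.92, and its other probe sets above the median ranged from -0.56 to 0.03. With AK6, an adenylate kinase named after its values were seen (log2 change -0.84), these 7 genes shared the smallest adjusted p of 0.318. TVP23B, a Golgi membrane protein, had the lowest change of all, at -1.16 (95% interval -1.74 to -0.58), with signals of 949.1 and 1197 with DMSO and of 427.5 and 509.5 with Doxycycline. SLITRK5, VSTM1 and NRIP3 had log2 changes of -0.87, -0.85 and -0.95, and NRIP3 varied most, with 104 and 31 in the Doxycycline arrays.

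None of the S phase genes was called. MCM6, a subunit of the replicative helicase, had signals of 1265 and 1332 with DMSO and of 777.2 and 940.9 with Doxycycline, without overlap. Its log2 change was -0.59 (95% interval -0.93 to -0.26, unadjusted p = 0.00258, adjusted p = 1.00 by limma). MCM2, MCM3 and MCM5 of the same helicase had log2 changes of -0.23, -0.17 and -0.17 with intervals that include 0. Of 24 S phase genes, 10 (41.7%) were lower without overlap and 0 higher, beside 16.7% and 11.8% of all genes, and the median was -0.19. The median was -0.33 without the repeat Doxycycline array and -0.05 without the first. The 25 genes of G2 and mitosis had a median of -0.10, with 7 (28.0%) lower and 0 higher without overlap, beside the same shares of all genes. That median was -0.24 without the repeat Doxycycline array and 0.07 without the first, and it was -0.20 between the first arrays and -0.04 between the repeat arrays. Of 18 p53 targets, ZMAT3 was higher at the unadjusted threshold, with 403.1 and 359.5 against 595.5 and 506.4, and the median was 0.12.

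Hairpin expression makes use of the cell's small RNA machinery and can raise interferon genes. XPO5, the export receptor of hairpin precursors, had signals of 318.4 and 320.5 with DMSO and of 230.2 and 219.9 with Doxycycline. The groups did not overlap, and the log2 change was -0.48 (95% interval -0.83 to -0.13, unadjusted p = 0.0127 by limma, not called). DROSHA and DICER1, the enzymes that cut the precursors, had log2 changes of -0.023 and 0.04, and the 13 genes of the list had a median of 0.04. Of 27 interferon genes, 0 passed the unadjusted threshold, 10 (37.0%) were higher without overlap and 3 (11.1%) lower, beside 11.8% and 16.7% of all genes, and the median was 0.12. ISG20, an interferon-induced nuclease and the member with the smallest p, had 176.6 and 141.5 with DMSO and 278.1 and 181.8 with Doxycycline. IFIT1 and IFIT2, classical interferon targets, had log2 changes of 0.15 and -0.23 with intervals that include 0. The interferon median was 0.17 without the repeat Doxycycline array and 0.05 without the first.

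Remaining lists had at most 1 gene in each direction at the unadjusted threshold. EGR1, an immediate early transcription factor, had signals of 1315 and 1416 with DMSO and of 986.3 and 1063 with Doxycycline (log2 change -0.41, unadjusted p = 0.0175). SREBF1, a transcription factor of lipid synthesis, had 171.3 and 139.2 against 74.2 and 100.1 (log2 change -0.74, unadjusted p = 0.0334). NGFR, a neurotrophin receptor, had 100.3 and 118.6 against 69.9 and 50.1 (log2 change -0.73, unadjusted p = 0.0326). None of them was called. The medians of the ER unfolded protein response, oxidative stress, cholesterol synthesis, metal transport and lysosome lists lay between -0.03 and 0.05.

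Heat shock genes are the targets of HSF1. The shNTC arrays give their change with Doxycycline when HSF1 is not knocked down and no inhibitor is present. Over 24 genes the median was 0.01 and turned to -0.08 with quantile normalization, with 0 at the unadjusted threshold, and 1 (4.17%) higher and 3 (12.5%) lower without overlap, beside 11.8% and 16.7% of all genes. In shHSF1 cells with NVP-HSP990 the same genes had a median of -1.16, and 16 of them fell with Doxycycline, where 1.85% of all genes were called lower. HSPA6, an inducible HSP70, was dim in all shNTC arrays, with signals of 8 and 15.5 with DMSO and of 5.1 and 12.7 with Doxycycline. BAG3, a cochaperone, had 649.1 and 718.7 against 601.1 and 794.7. HSPB1, a small heat shock protein, had 588.2 and 581.5 against 589.2 and 633.4. The shNTC groups overlapped for HSPA6 and BAG3, and for HSPB1 both Doxycycline arrays were slightly the higher. The 95% intervals in shNTC cells were -0.35 to 0.38 for BAG3 and -0.39 to 0.51 for HSPB1, while the log2 changes in shHSF1 cells were -2.73 and -2.62. Signals in shHSF1 cells with NVP-HSP990 and no Doxycycline were 1681 and 1329 for HSPA6, 2510 and 2700 for BAG3 and 2006 and 1500 for HSPB1. The shNTC arrays, all without inhibitor, started far lower, so they do not show what Doxycycline does at those levels. HSPA6 was too dim there to show such a fall.

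Doxycycline in shHSF1 cells with NVP-HSP990 called 360 genes (2.84%), and their values in shNTC cells come from other arrays, with line, inhibitor and hairpin all different. That count was 208 and 206 without the first or the repeat shNTC DMSO array, 155 and 217 without an array of shHSF1 cells with NVP-HSP990, and 195 and 123 without an array of shHSF1 cells with Doxycycline. It was 221 with no filter, 752 with a replicate block and 0 with the methods' t-test after adjustment. In shNTC cells the 360 genes had a median change of -0.0059 and a median absolute change of 0.139, beside 0.117 over all tested genes and 1.06 for the same genes in shHSF1 cells. For 342 of them the shNTC interval lay within a 2-fold change, and for 354 it excluded the value in shHSF1 cells. The 360 were chosen for a change large beside a standard error that both lines share in the model. A shNTC value near 0 then excludes the shHSF1 value by that choice, so the 354 are no test of a difference. By the test of the difference, 96 of the 360 were called. At an unadjusted p under 0.05 in shNTC cells, 33 of the 360 (9.17%) passed, beside 2.41% of all genes, 12 with the same sign in both lines and 21 with opposite signs. The shared standard error enters both p-values, so a gene for which it is small passes both more easily. The higher share among the 360 therefore cannot show that these genes respond more in shNTC cells. MMP3, KMT5A and TASOR were among the 12. TASOR, a subunit of a silencing complex, had signals of 1082 and 1279 with DMSO and of 818.9 and 947.2 with Doxycycline, a log2 change of -0.41 in shNTC cells and of -2.29 in shHSF1 cells. Among the 21, F3, tissue factor, had 468.5 and 528.2 against 331.9 and 217.5, a log2 change of -0.85 in shNTC cells and of 2.37 in shHSF1 cells. CCNA1 and ITGA1 also had opposite signs, with log2 changes in shHSF1 cells of 0.75 and -1.73.

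The difference between the lines was itself tested. It was called for 100 genes (0.789%). Of these, 96 were among the 360, an overlap partly built in, since the shHSF1 change enters both tests with the same estimate of spread. Among the 100 genes, 39 had the higher change in shHSF1 cells and 61 the lower. The count was 7 without the first shNTC DMSO array, 13 without the repeat one, 34 and 24 without the first or the repeat Doxycycline array, 62 without the first array of shHSF1 cells with NVP-HSP990 and 42 without the repeat array of shHSF1 cells with Doxycycline. It was 59 with no filter, 33 with the ACTB ratio as a covariate and 279 with a replicate block. For KMT5A the difference was 0.02 (adjusted p = 0.990 by limma) and for MMP3 it was 0.73 (adjusted p = 0.667), and neither result shows that the lines respond alike.

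**Figure D5:**
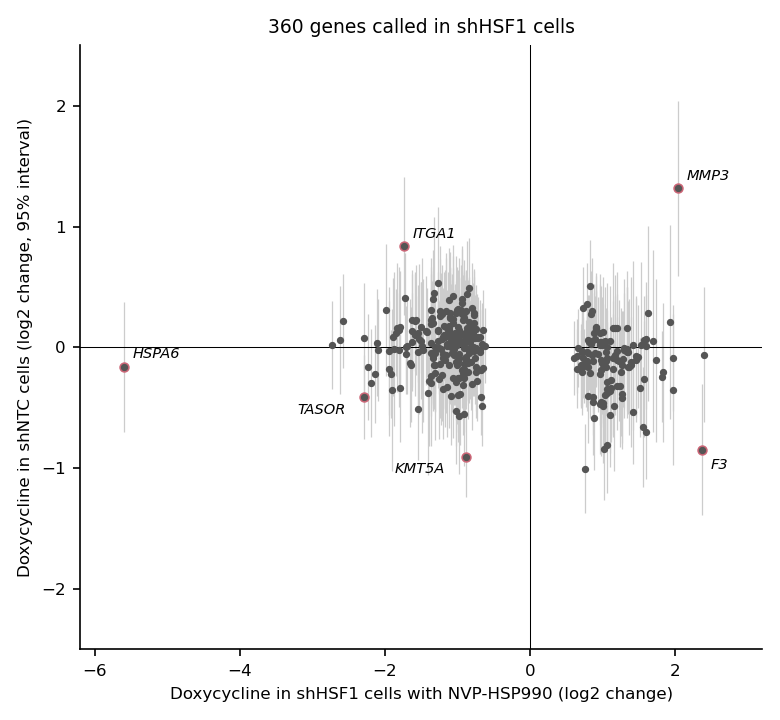
Log2 change with Doxycycline in shNTC cells with its 95% interval (vertical) against that in shHSF1 cells with NVP-HSP990 (horizontal) for the 360 genes called in shHSF1 cells. Most shNTC values lie near 0, with a median of -0.0059, while MMP3 reaches 1.32 and F3 lies at -0.85.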

How the data were processed

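Labelled cDNA was hybridized to HG-U133 Plus2 arrays. The authors deposited linear signal intensities made with MAS5 (version not given in the sources used here), with every array brought to a mean of 150 after 2 percent of probe sets were trimmed at each end. Of 54675 probe sets, 41091 had a single gene symbol in the platform annotation, 1801 had several and 11721 none, and 62 were controls. Each of 19775 genes was read from its brightest probe set by mean log2 signal. Genes at or above their array's median in at least 2 of 8 arrays were tested (12672). Differences of log2(signal + 16) were fitted in R 4.3.3 by limma 3.58.1, using a mean per group and a variance trend, two-sided, adjusted by Benjamini-Hochberg over all tested genes and called under 0.05. The steps were tested on simulated data. For arrays, their number limits the precision. The paper's methods give Student's test in general, with nothing specific to the arrays, and it was run as an alternative.

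Genes named are the 10 lowest and 10 highest changes among genes at an unadjusted p under 0.05 without overlap, the first 4 tested members of each list with the one of smallest p, HSF1 and control probe sets, and the 5 largest changes in each direction in shHSF1 cells. AK6, MAP2 and COX3 fall outside this rule and were picked once their values had been seen. The members and the 31 lists were chosen with earlier results of these data known. Alternatives were another added value, no filter or a stricter one, quantile normalization, median centring, other treatment of probe sets, no trend, only the shNTC arrays, a replicate block, the ACTB ratio as a covariate, the methods' t-test and leaving out each array. The ratio of 1 further control gene is not reported here.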

Additional observations from a re-analysis of the deposited data

Results flagged for a closer look

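The Doxycycline effect differed between the shHSF1 and shNTC lines, the former under NVP-HSP990, by the test of the difference itself in limma, for 100 genes. The lines, the inhibitor and the hairpin differ together between these groups and cannot be told apart. Among the genes named for their size in shNTC cells, the change in shHSF1 cells minus that in shNTC cells was 1.76 on the log2 scale for CCNA1, 1.15 for MAFF, 1.77 for VSTM1, -2.57 for ITGA1 and -1.16 for ALDH6A1. Among the genes named for their size in shHSF1 cells, it was 2.46 for DIO2, 3.22 for F3, 2.33 for ANKRD1 and 2.06 for TMEM52B. It was -5.44 for HSPA6, -2.74 for BAG3, -2.68 for HSPB1, -2.80 for NAP1L3 and -1.88 for TASOR. Only ITGA1, CCNA1 and F3 of these were at an unadjusted p under 0.05 in shNTC cells with the opposite sign to a call in shHSF1 cells.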

How the results depend on the processing

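In shNTC cells, 0 genes were called with Doxycycline in each of the 21 alternatives, the methods' t-test included, and the smallest adjusted p in any of them was 0.0829. The 306 genes at an unadjusted p under 0.05 became 533 with no filter, 644 with probe sets tested singly, 588 with the methods' t-test, and 148 to 1043 with 1 array left out. The 100 genes whose effect differed between lines became 59 with no filter and 7 to 76 with 1 array left out, and 33 with the ACTB ratio as a covariate, an alternative added for this result after seeing the data. For the 360 genes called in shHSF1 cells, all alternatives were added in that way, and gave 221 with no filter, 0 with the methods' t-test and 123 to 380 with 1 array left out. With a replicate block on the first and repeat arrays the counts were 0, 626, 279 and 752. Deviations of equal-numbered arrays correlated at 0.464 between the shNTC groups and at 0.685 between the shHSF1 groups. Between lines the correlations were 0.0156 to 0.276. Equal-numbered arrays thus shared deviations within a line, which the model without the block leaves out. None of the 20 genes named by size was called or reversed in 419 alternative values. Of 589 alternative medians of gene lists, 491 moved by less than the spread between runs and 98 by more. The cause of these shifts was not tested. A lone array left in a group was assumed to vary like the other groups.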
